A study of Mus musculus with 12 samples.

Results

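Mpeg1, Lpxn and 7 genes near them on mouse chromosome 19 were described in whole brain of mice with and without a working Il18, which encodes the cytokine interleukin-18. The members are Mpeg1, Lpxn, Dtx4, Zfp91, Cntf, Osbp, Patl1, Stx3 and Fam111a, taken by their gene name in the scan files, which gave 14 of the 55681 probes measured. All 14 were tested, and 13 were well above background on all 12 arrays. The members were chosen by the level in knockout against wild type, lower for Mpeg1 and Lpxn at both ages, and by position beside them. The differences by genotype of all 9 are therefore given as a description with no test.

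Total RNA of whole brain was hybridised to Agilent one-colour arrays, 1 array per animal, with 3 untreated BALB/c mice in each of 4 groups. The groups were interleukin-18 knockout at 12 weeks, wild type at 12 weeks, interleukin-18 knockout at 6 weeks and wild type at 6 weeks. How the knockout allele was made and the strain it came from are not given in the sources used here. A level here is the log2 signal of a probe minus log2 of the 75th percentile of its array, so a value of 0 is the 75th percentile and levels of different probes are not compared.

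Mpeg1 encodes perforin-2, a pore-forming protein that macrophages and microglia use against engulfed bacteria, and its transcript is widely used as a macrophage marker. Lpxn encodes leupaxin, a paxillin-family adaptor with LIM domains that sits at adhesion sites of blood-derived cells. Microglia are the resident macrophages of the brain, and in whole-tissue RNA fewer such cells and less transcript per cell cannot be told apart.

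The probes that carry the results were these, from the scan files, in lower case from 5′ to 3′. The dimmer of the Mpeg1 probes is shown whole, because its result depends on how background is treated, and 2 of its 3 reading frames hold no stop codon. For the brighter Mpeg1 probe the first 30 bases are given. For Lpxn the last 30 bases are given, with the polyadenylation hexamer AATAAA in capitals.
Mpeg1 probe A_52_P180373: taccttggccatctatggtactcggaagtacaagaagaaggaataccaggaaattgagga
Mpeg1 probe A_51_P390538: aagagggctaattgcacaacctctccatcg
Lpxn probe A_52_P577748: atttttactgacacatgtgatgAATAAAgc
On build mm9 the first lies on the plus strand at chr19:12537697-12537756, the second 1631 bases further at chr19:12539387-12539446, and the Lpxn probe at chr19:12908221-12908280, also on the plus strand.

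Lpxn and Zfp91 are read away from each other, and RefSeq places 69 bases between their starts (chr19:12796124-12796192, plus strand, GRCm38.p6). This stretch is printed because the genes on its sides had different levels by group, and 73.9% of it is G or C. The 250 bases before the Mpeg1 start (chr19:12460520-12460769, plus strand, GRCm38.p6) hold 40.0% G or C and are shown beside it.
Between the Zfp91 and Lpxn starts: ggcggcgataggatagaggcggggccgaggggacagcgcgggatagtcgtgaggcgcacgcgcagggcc
Before the Mpeg1 start: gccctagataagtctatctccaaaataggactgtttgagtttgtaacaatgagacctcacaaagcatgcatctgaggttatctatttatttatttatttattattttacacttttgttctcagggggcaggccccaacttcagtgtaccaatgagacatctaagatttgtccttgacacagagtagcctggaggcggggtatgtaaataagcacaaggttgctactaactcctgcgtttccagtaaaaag
Of the members 8 had a RefSeq promoter window, in 9 windows of 250 bases before and 50 after the start. The exact letters GAGGAAGT, a form of the site bound by the macrophage factor PU.1, and CACGTG, an E-box, were searched on both strands. They were in 0 of the 9 windows. Over all 32851 windows 3.2% held the first and 7.15% the second. Other forms of the PU.1 site were not searched. Shares this low leave little to find in 9 windows, some of which overlap, so nothing is read from the 0.

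Il18 itself, on chromosome 9, was lower in every knockout, and the sources used here do not say which exons the allele lacks. Its probe (chr9:50389761-50389820, mm9) read -0.20, -0.23 and -0.32 in 12-week knockouts, against 1.51, 1.63 and 1.93 in 12-week wild types. At 6 weeks it read -0.28, -0.17 and -0.20 in knockouts, against 1.60, 1.75 and 1.52 in wild types. The difference was -1.94 ± 0.11 at 12 weeks (SE, limma adjusted p = 1.8e-05) and -1.84 ± 0.11 at 6 weeks (limma adjusted p = 3.9e-05).

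Between 65.9% and 76.2% of non-control spots were well above background, and the 75th percentile ran from 890 to 1188 intensity units. The highest shares above background were those of 12-week wild-type replicates 2 (76.2%) and 3 (74.0%). The next was 6-week knockout replicate 3, at 69.4%. Markers of the labelled tissue were high on all 12 arrays, with mean levels of 4.69 to 5.11 for 6 neuron genes, 4.06 to 4.62 for 7 oligodendrocyte genes and 2.97 to 3.15 for 7 astrocyte genes. The arrays lay on 2 slides. Slide 2 held every 12-week knockout and 6-week knockout replicate 3, and slide 1 held the other 8 arrays. At 12 weeks slide and genotype coincide, so those values have no within-slide counterpart. A fit that blocks on slide takes the slide effect from the 6-week knockouts, and its values are given with the members and the lists. In wild type all 6-week arrays and 12-week replicate 1 were in slide column 2, and all other arrays were in column 1, so genotype at 6 weeks coincides fully with column and age in wild type largely does.

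Mpeg1 was lower in knockout brain at both ages. The brighter probe, A_51_P390538, read 0.14, 0.23 and 0.21 in 12-week knockouts, against 0.93, 0.89 and 1.02 in 12-week wild types. It read 0.05, 0.12 and 0.11 in 6-week knockouts, against 0.96, 1.01 and 0.96 in 6-week wild types. The 6 knockout values lay below the 6 wild-type values without overlap, and the groups were narrow, with an SD of 0.03 to 0.06 in each. The knockout minus wild-type difference was -0.75 ± 0.06 (SE) at 12 weeks, 0.594 of the wild-type signal, and -0.89 ± 0.06 at 6 weeks, 0.541 of it. A slide block gave -0.77 and -0.89. The 6-week knockout on slide 2 differed from the pair on slide 1 by 0.02.

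The dimmer Mpeg1 probe, A_52_P180373, also read lower in knockout, with a wider spread. Its levels were -5.49, -5.55 and -6.68 in 12-week knockouts, against -4.87, -4.67 and -4.80 in 12-week wild types. At 6 weeks they were -5.04, -5.42 and -5.19 in knockouts, against -4.65, -4.53 and -4.93 in wild types. The groups of each age did not overlap, and 12-week knockout replicate 3 stood lowest, with 2 of that group's 3 arrays well above background. The difference was -1.13 ± 0.27 at 12 weeks (-0.74 without that replicate) and -0.51 ± 0.27 at 6 weeks. With normexp background correction it was 0.02 at 12 weeks and -0.04 at 6 weeks, so the direction from this probe depends on how background was treated. A slide block gave -1.16 and -0.52.

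Lpxn was lower in knockout as well. Its 1 probe read -3.06, -3.00 and -2.99 in 12-week knockouts, against -2.60, -2.61 and -2.58 in 12-week wild types. It read -3.46, -3.54 and -3.27 in 6-week knockouts, against -2.61, -2.57 and -2.73 in 6-week wild types. No knockout array reached any wild-type array. The difference was -0.42 ± 0.08 at 12 weeks, 0.746 of the wild-type signal, and -0.78 ± 0.08 at 6 weeks, 0.580 of it. With slide as a block they were -0.65 and -0.86, and 6-week knockout replicate 3, on slide 2, read 0.23 above the pair on slide 1. With normexp they were -0.04 and -0.41. Whether the difference itself changed with age was not tested.

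**Figure D1:**
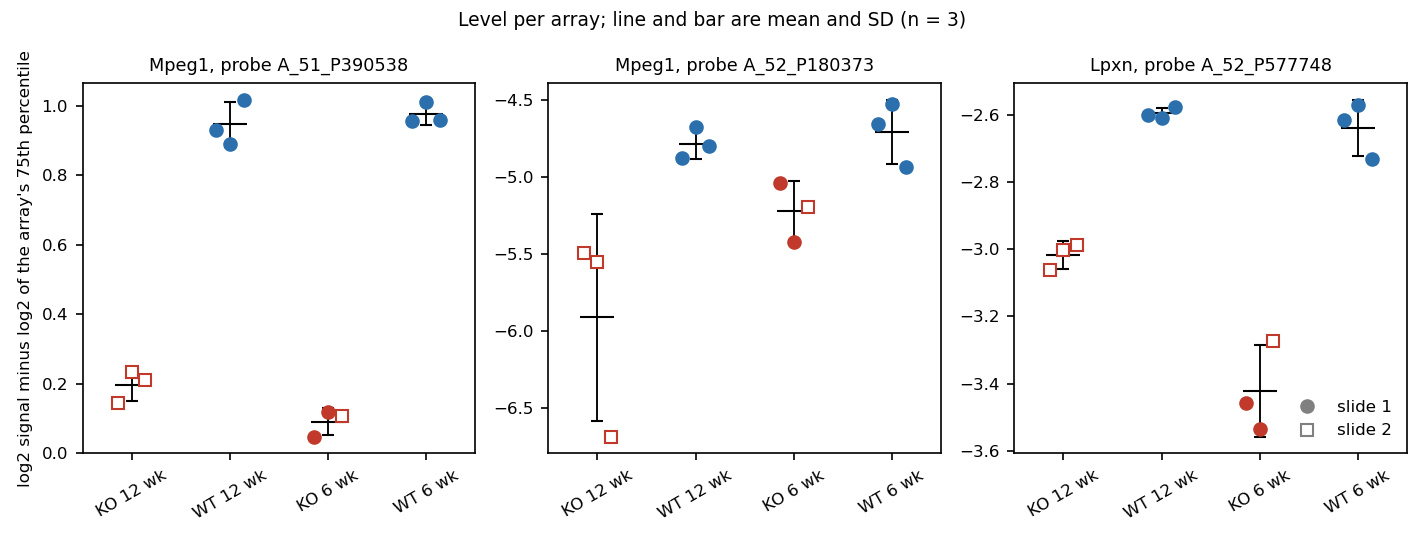
Levels of the Mpeg1 probes and the Lpxn probe on each array (y axis, log2 signal minus log2 of the array's 75th percentile), by group on the x axis, with filled circles for slide 1, open squares for slide 2 and the mean with SD (n = 3). Knockout arrays sit below wild-type arrays at both ages in each panel, and 12-week knockout replicate 3 lies apart at -6.68 for the dimmer Mpeg1 probe.

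Zfp91, an E3 ubiquitin ligase with zinc fingers that acts in the noncanonical NF-κB pathway, sat 67.18 kb from the Lpxn probe and had a different pattern. The scan files name a sequence entry outside RefSeq for the Zfp91 probe, and a RefSeq transcript for the probes of the other members. Its probe is spotted 10 times per array, with an SD over spots of 0.048 to 0.108, and read -2.05, -1.96 and -1.95 in 12-week knockouts, against -1.63, -1.49 and -1.54 in 12-week wild types. It read -1.52, -1.47 and -1.93 in 6-week knockouts, against -1.72, -1.56 and -1.63 in 6-week wild types. The 4 arrays of slide 2 were the lowest of the 12, and 6-week knockout replicate 3 lay 0.43 below the other 6-week knockouts. The difference was -0.44 ± 0.11 at 12 weeks and -0.00 ± 0.11 at 6 weeks. With slide as a block the values were -0.00 and 0.14.

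Dtx4, a deltex-family E3 ligase of the Notch pathway, is the nearest member to Mpeg1, its probe starting 1489 bases past the end of the brighter Mpeg1 probe on the other strand. It read 2.14, 1.98 and 2.09 in 12-week knockouts, against 2.13, 1.99 and 2.16 in 12-week wild types. At 6 weeks it read 2.16, 2.12 and 2.15 in knockouts, against 2.08, 2.06 and 2.14 in wild types. The groups overlapped at both ages, with differences of -0.02 ± 0.07 and 0.05 ± 0.07, and the slide block gave -0.03 and 0.05.

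Cntf, a cytokine of glial cells that supports neuron survival, had 2 probes 158 bases apart, whose groups overlapped at both ages. The differences were -0.22 ± 0.14 and -0.13 ± 0.09 at 12 weeks and -0.13 ± 0.14 and -0.17 ± 0.09 at 6 weeks. Blocking on slide turned the 12-week values into -0.09 and -0.15. Fam111a, a protease that binds the replication clamp PCNA and restricts viruses, differed by -0.00 ± 0.14 at 12 weeks, and by 0.13 with the slide block. At 6 weeks it read -3.44, -3.67 and -3.69 in knockouts, against -3.96, -3.70 and -3.85 in wild types, which did not overlap. That difference was 0.23 ± 0.14.

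Osbp carries sterol from the endoplasmic reticulum to the Golgi, Patl1 links messenger RNA decay factors in processing bodies, and Stx3 is a SNARE of exocytosis. The brighter Osbp probe differed by -0.13 ± 0.09 at 12 weeks and by 0.09 ± 0.09 at 6 weeks. At 12 weeks the groups only just lay apart, with the highest knockout at -0.2115 and the lowest wild type at -0.2100. With slide as a block the 12-week value was 0.11. The other Osbp probe had a 12-week knockout array at -2.24 and another at -3.88, and its groups overlapped. Patl1 overlapped at both ages, with 0.06 ± 0.10 and 0.01 ± 0.10, and its 12-week value was -0.13 when slide was blocked.

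The 3 Stx3 probes had differences of both signs. The scan files name 1 transcript for A_52_P526379 and a different one for the other probes. Probe A_52_P526379 read -0.68, -0.92 and -0.82 in 12-week knockouts, against -1.16, -1.01 and -1.03 in 12-week wild types. It read -0.94, -0.98 and -0.96 in 6-week knockouts, against -1.03, -1.21 and -1.36 in 6-week wild types. It was higher in knockout without overlap at both ages, by 0.26 ± 0.09 and 0.24 ± 0.09. Of all tested probes 27.2% were higher without overlap at 12 weeks and 14.1% at 6 weeks. Probe A_55_P2171658 differed by -0.17 ± 0.12 at 12 weeks, without overlap, and by -0.07 ± 0.12 at 6 weeks, with overlap. Probe A_51_P100298 differed by -0.26 ± 0.16 and -0.01 ± 0.16 with overlap at both ages. It is dim, reading down to -5.12, with an SD over its 10 spots of 0.098 to 0.292. The slide block gave 12-week values of 0.27, -0.30 and -0.19 for the probes in this order.

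Of the 14 probes 6 lay lower in knockout without overlap at 12 weeks, where 24.7% of all tested probes did. At 6 weeks 3 did, against 8.62% of all probes, and the same 3, both Mpeg1 probes and Lpxn, did so at both ages, against 4.49%. Without 6-week knockout replicate 2 the 6-week count was 5. Higher without overlap were 1 at 12 weeks, against 27.2% of all probes, and 2 at 6 weeks, against 14.1%. These counts are of the contrast that chose the members and nothing is read from them. Apart from Mpeg1 and Lpxn, no member was lower without overlap at both ages.

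At 6 weeks every knockout array was in column 1 and every wild-type array in column 2. A fit with column as a block takes the column effect from the 12-week wild types, 1 in column 2 and 2 in column 1. It gave 6-week differences of -0.91 for the brighter Mpeg1 probe, -0.65 for the dimmer one and -0.79 for Lpxn. For the other members it gave 0.10 for Stx3 A_52_P526379, -0.02 for Fam111a, 0.22 for the brighter Osbp probe, 0.23 for Patl1 and -0.34 for Cntf A_55_P2086949. The last 5 each moved by more than the spread between replicates.

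**Figure D2:**
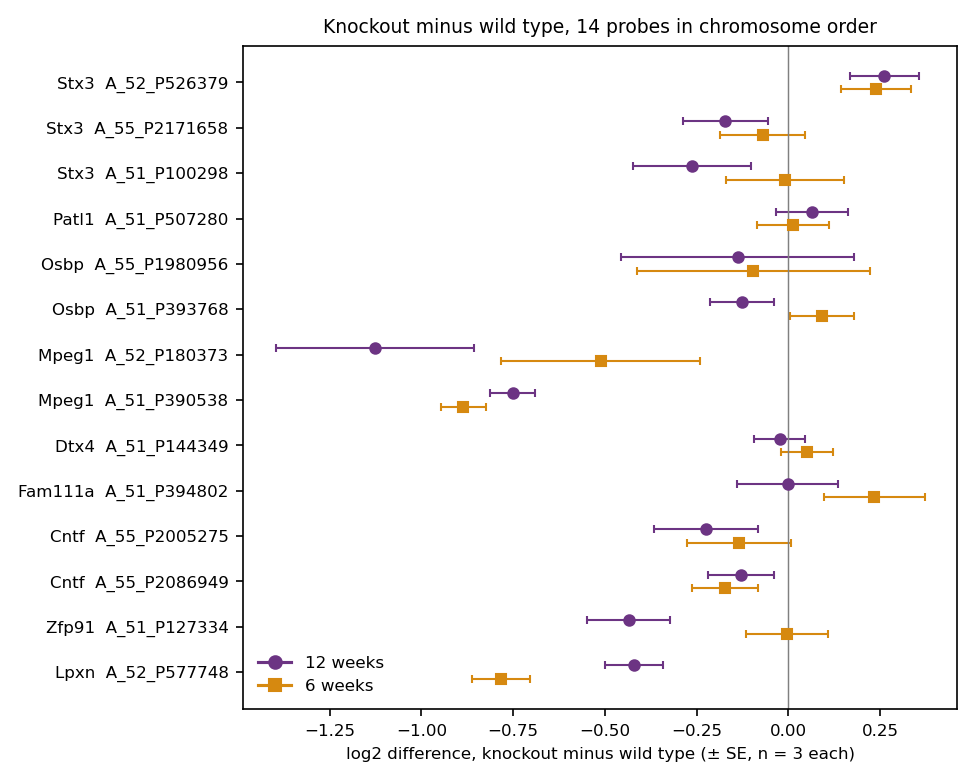
Knockout minus wild-type difference (x axis, log2, ± SE, n = 3 each) of the 14 probes in chromosome order, circles for 12 weeks and squares for 6 weeks. Mpeg1 (-0.75 and -0.89 for its brighter probe) and Lpxn (-0.42 and -0.78) lie left of 0 at both ages, and Dtx4, next to Mpeg1, lies at -0.02 and 0.05.

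The members' probes span 1058.037 kb, and 368.775 kb separate the brighter Mpeg1 probe from that of Lpxn. Dtx4, Fam111a, Cntf and Zfp91 lie between them and none was lower without overlap at both ages. Only 4.49% of all tested probes were, so nothing is read from this. Other genes of the region were tested with limma, 1 probe per gene, the brightest. Within 2 Mb of the members, 20 of 66 other genes were called at 12 weeks, 15 higher and 5 lower in knockout. This is 30.3%, where 31.7% of all 26495 genes were called, and the median difference was 0.14 against 0.02 over all genes. The 66 ran from -1.71 to 1.92 at 12 weeks and from -1.10 to 0.92 at 6 weeks, so the lowest lay below Mpeg1 and Lpxn at each age. With slide as a block 0 of the 66 were called, where 0.102% of all genes were. Without the block 27 of the 66 had an unadjusted p under 0.05, as did 11882 of all 26495 genes. The 20 became 10 when knockout replicate 2 was left out, 12 for knockout replicate 1 and 13 for wild-type replicate 1. At 6 weeks 1 of 66 was called (1.52%), where 0.698% of all genes were, with a median of 0.06 against 0.04 over all genes. Blocking on slide left 1 call there, against 0.381% of all genes.

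That gene was Cd6, a receptor of T cells for the adhesion molecule ALCAM, which rose by 0.78 ± 0.12 at 6 weeks (limma adjusted p = 0.0255, or 0.0443 when slide was blocked). At 12 weeks Cd6 was higher by 0.47 ± 0.12 (limma adjusted p = 0.0181). Its call at 6 weeks ended without wild-type replicates 2 or 3 or knockout replicates 1 or 2, within slide 1 alone and with slide column as a block. Named genes that rose at 12 weeks and were not called at 6 weeks were Cybasc3, a lysosomal cytochrome (0.76 ± 0.12), Ddb1, an adaptor of ubiquitin ligases (0.48 ± 0.10), Incenp of the chromosomal passenger complex (0.45 ± 0.08) and Tmem132a (0.38 ± 0.08). Their limma adjusted p ran from 0.0058 to 0.0094, and none was called with slide as a block. Tmem109 was higher by 0.16 ± 0.07 at 12 weeks (limma adjusted p = 0.0884) and 0.26 ± 0.07 at 6 weeks (0.109). Over both ages 16 of the 66 were called higher and 3 lower (28.8%, against 31.4% of all genes), and the 6 named here were all higher.

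Of the 11 other genes between the first and last member probe, 5 were called at 12 weeks (45.5%, against 31.7% of all genes) and 0 at 6 weeks (against 0.698%). At 6 weeks 2 of the 11 had an unadjusted p under 0.05, as did 4762 of all 26495 genes. The 5 were chosen for naming after their values were seen. The olfactory receptor Olfr1419 (0.35 ± 0.11) and an unnamed transcript at probe A_30_P01030745 (0.80 ± 0.24) were higher. The RIKEN clone 4122401K19Rik (-1.71 ± 0.28), the olfactory receptor Olfr1443 (-0.67 ± 0.21) and the unnamed NAP114231-1 (-0.57 ± 0.20) were lower. With slide as a block none of the 5 was called, and NAP114231-1 stood at 0.31. On the rest of chromosome 19, 257 of 729 genes were called at 12 weeks (35.3%, against the same 31.7%) and 1 of 729 at 6 weeks (0.137%, against 0.698%).

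The Ms4a genes, membrane proteins of immune cells encoded next to the members, had 7 of 18 genes bright enough to test. At 12 weeks 1 was called, Ms4a4c, higher by 0.22 ± 0.07, which is 14.3% of the 7 against 31.7% of all genes. The slide block gave 0.13 for it, with 0 of the 7 called (against 0.102% of all genes). At 6 weeks 0 were called by limma (against 0.698% of all genes). An unadjusted p under 0.05 was found for 2 of the 7 and for 4762 of all 26495 genes. The median difference of the 7 was 0.02 at 12 weeks and -0.04 at 6 weeks.

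**Figure D3:**
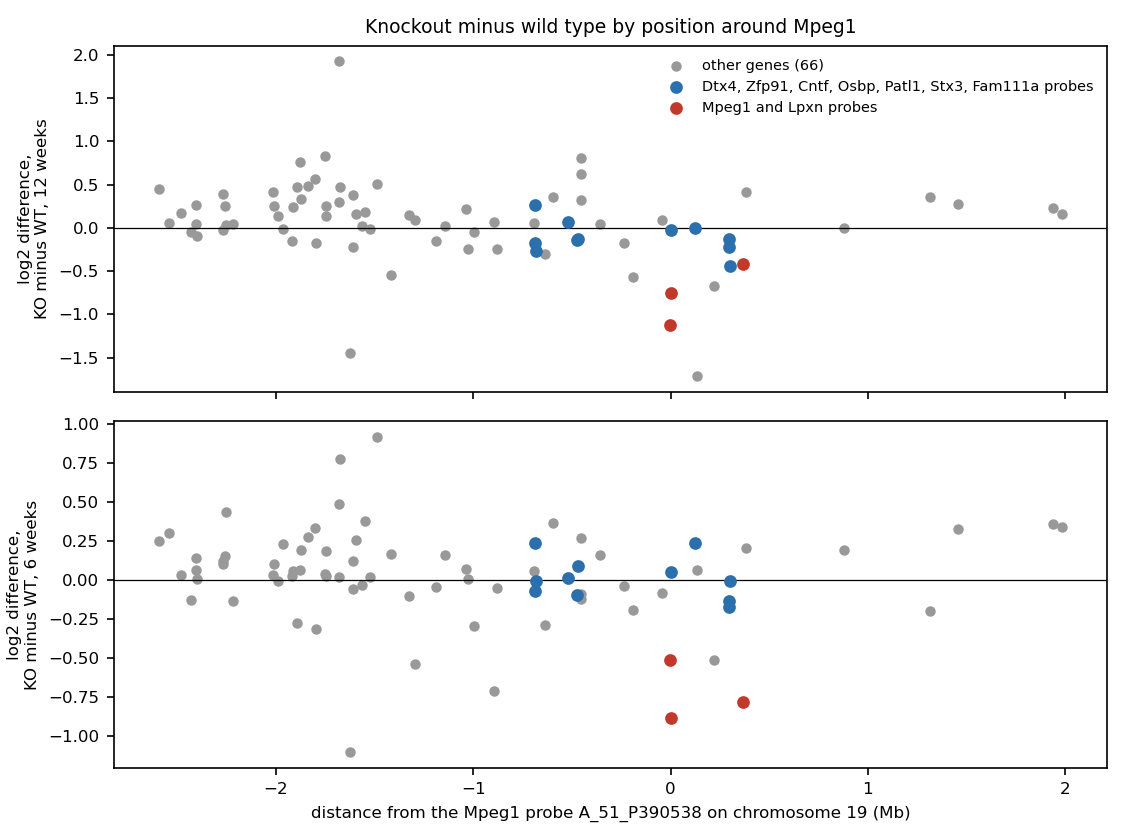
Knockout minus wild-type difference (y axis, log2) at 12 weeks (top) and 6 weeks (bottom) against distance from the brighter Mpeg1 probe on chromosome 19 (x axis, Mb), with grey points for 66 other genes, blue for the other members' probes and red for Mpeg1 and Lpxn. At 6 weeks the blue points lie between -0.17 and 0.24 while the red ones lie between -0.89 and -0.51. The grey points run from -1.10 to 0.92 at 6 weeks and from -1.71 to 1.92 at 12 weeks. The lowest grey point lies below every red one at each age.

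Microglia genes were compared because Mpeg1 is a macrophage transcript. Of 34 listed genes 33 were tested and all 33 were well above background on all arrays. At 6 weeks 0 were called by limma in knockout against wild type, where 0.698% of all genes were, with a median difference of -0.00. An unadjusted p under 0.05 was found for 5 of the 33 and for 4762 of all 26495 genes. At 12 weeks 6 rose and 4 fell, 30.3% of the list against 31.7% of all genes, with a median of 0.08. With slide as a block 0 were called, where 0.102% of all genes were, and the median was 0.03. The mean level of the 33 genes ran from 0.66 to 0.77 over 12-week knockouts, from 0.63 to 0.78 over 12-week wild types, from 0.67 to 0.71 over 6-week knockouts and from 0.63 to 0.77 over 6-week wild types.

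At 12 weeks Fcrls, an Fc receptor-like protein of microglia (0.47 ± 0.07), the complement gene C1qa (0.40 ± 0.09) and Tmem119, a marker that sets microglia apart from other macrophages (0.35 ± 0.09), rose. Hpgds, a prostaglandin D synthase found in microglia, fell (-1.24 ± 0.20). Leaving out any 1 of the 6 arrays of the 12-week groups left 3 to 6 called microglia genes, the fewest without knockout replicate 1. At 6 weeks the lowest of the 33 was Hpgds at -0.60 ± 0.20 (limma adjusted p = 0.176), beside values of -0.89 for Mpeg1 and -0.78 for Lpxn, which were chosen for being low.

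**Figure D4:**
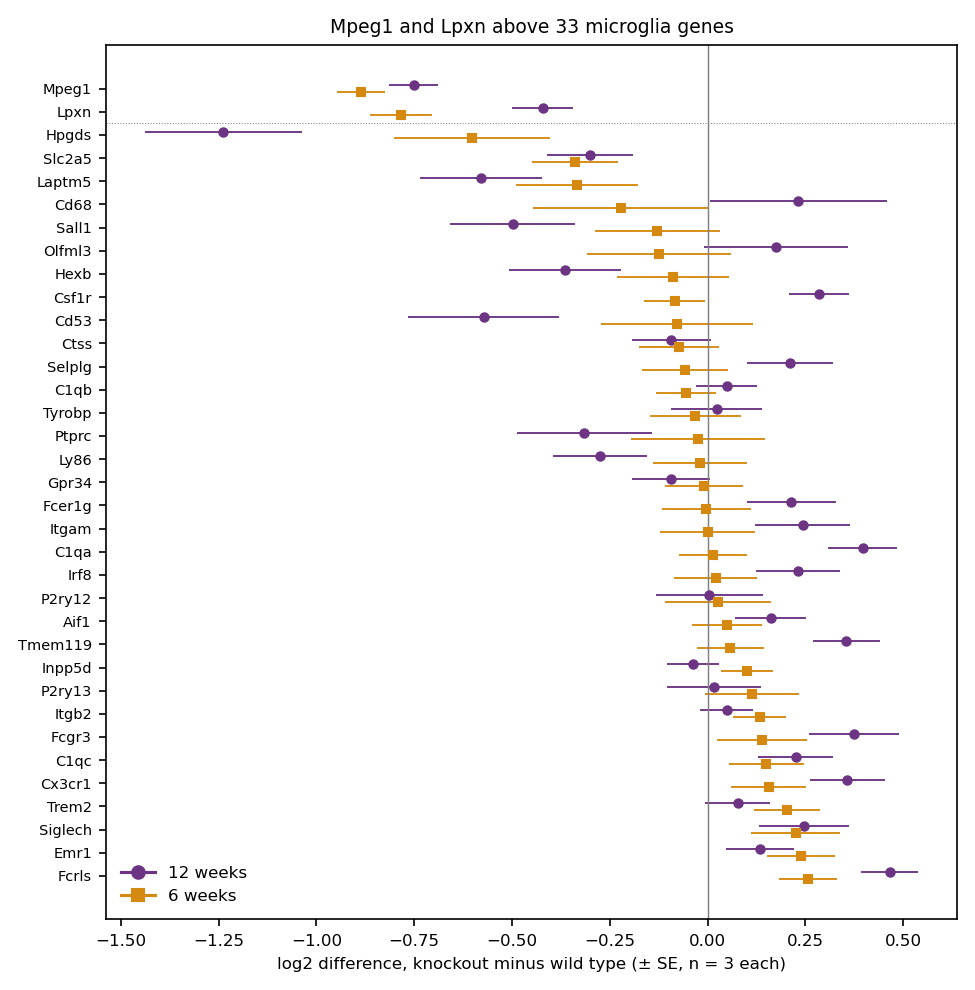
Knockout minus wild-type difference (x axis, log2, ± SE, n = 3 each) of the brighter Mpeg1 probe and of Lpxn, above 33 microglia genes sorted by their 6-week value, with circles for 12 weeks and squares for 6 weeks. At 6 weeks the microglia genes run from -0.60 (Hpgds) to 0.26 (Fcrls), and Mpeg1 and Lpxn, which were chosen for this difference, lie at -0.89 and -0.78.

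Other cells of the blood and the brain's borders were read from their own lists. Over all 26495 genes 31.7% were called at 12 weeks and 0.698% at 6 weeks. An unadjusted p under 0.05 was found for 11882 of them at 12 weeks and 4762 at 6 weeks. Of 9 border macrophage genes tested, 3 rose at 12 weeks (33.3%, against 31.7% of all genes), the carbonyl reductase Cbr2 (1.02 ± 0.21), the scavenger receptor Stab1 (0.50 ± 0.11) and F13a1, a subunit of clotting factor XIII (0.38 ± 0.12), and 0 were called at 6 weeks, with 0 at an unadjusted p under 0.05. Of 6 neutrophil genes tested, 4 were well above background on all 12 arrays. At 12 weeks 4 of the 6 rose (66.7%), the calcium-binding S100a8 (2.40 ± 0.74), S100a9 (2.17 ± 0.74), the antimicrobial Camp (0.77 ± 0.22) and the iron-sequestering Lcn2 (0.39 ± 0.13). At 6 weeks 0 of the 6 were called, with 2 at an unadjusted p under 0.05. The mean neutrophil level ran from -2.72 to -1.51 in 12-week knockouts and from -3.34 to -3.19 in 12-week wild types, and from -3.68 to -1.75 in 6-week knockouts and from -4.16 to -3.31 in 6-week wild types. Of 5 lymphocyte genes tested 0 were called at either age, with 0 at an unadjusted p under 0.05. At 12 weeks 4 of 7 oligodendrocyte genes (57.1%) and 2 of 6 neuron genes (33.3%) rose, and of 7 astrocyte genes 2 rose and 1 fell (42.9%). Blocking on slide left 0 genes of these 6 lists called at either age, where 0.102% of all genes were at 12 weeks and 0.381% at 6 weeks. The block gave 12-week values of 5.27 for S100a8, 4.94 for S100a9, 1.24 for Camp and 0.38 for Cbr2, and an oligodendrocyte median of -0.07, against 0.44 without it. The part of these cells in the levels of Mpeg1 and Lpxn was not tested.

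With age, no member probe was called in wild type. Of the 14, 0 passed in 12 against 6 weeks (limma, Benjamini-Hochberg over all probes, where 0.438% were called), 0 had an unadjusted p under 0.05 and 0 lay apart without overlap, where 24% of all probes did. With 1 probe per gene, 3778 of all 26495 genes had an unadjusted p under 0.05. Mpeg1 differed by -0.03 ± 0.06 (limma adjusted p = 0.888) and Lpxn by 0.04 ± 0.08 (0.866). The age comparisons use the same arrays as those by genotype.

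In knockout 1 of 14 probes was called, where 1.09% of all probes were. Lpxn rose with age, with the values given above apart without overlap, by 0.41 ± 0.08 (limma adjusted p = 0.0478). Lpxn was chosen for low knockout levels, those at 6 weeks among them, so this rise is not independent of the choice. The call ended with slide as a block (0.25 ± 0.08, adjusted p = 0.521). Of 19 alternatives 5 kept the call and 14 did not. Leaving out any 1 of the 6 knockout arrays ended it, except 6-week replicate 3, and the adjusted p then ran from 0.00195 to 0.196. Within slide 2 the 12-week knockouts read 0.25 above the 6-week knockout.

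Zfp91 gave a knockout age difference of -0.35 ± 0.11 (limma adjusted p = 0.104) and the dimmer Mpeg1 probe at -0.69 ± 0.27 (0.151), each with an unadjusted p under 0.05, and 5 of the 14 probes lay apart without overlap, where 25.4% of all probes did. Zfp91 passed without 6-week knockout replicate 3, at -0.49 (adjusted p = 0.00237), and stood at -0.06 with slide as a block (adjusted p = 0.933). The brighter Mpeg1 probe differed by 0.105 ± 0.062 (limma adjusted p = 0.302).

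**Figure D5:**
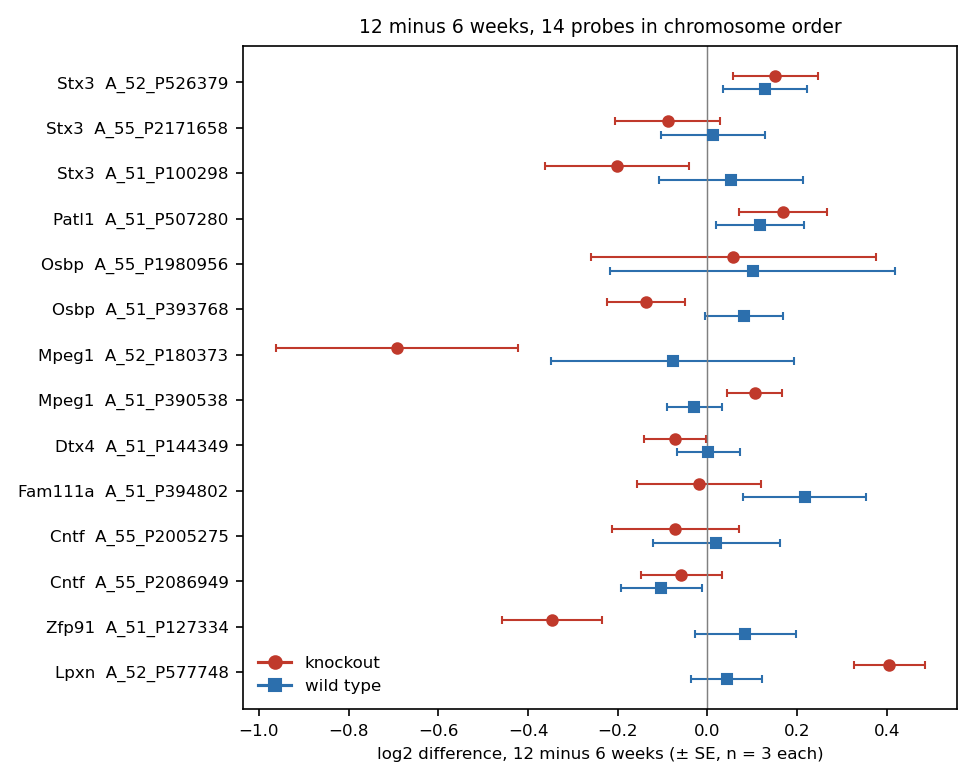
Difference of 12 minus 6 weeks (x axis, log2, ± SE, n = 3 each) of the 14 probes in chromosome order, circles for knockout and squares for wild type. Lpxn lies at 0.41 in knockout and 0.04 in wild type, and the wild-type values of all 14 probes lie between -0.10 and 0.22.

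Genes that work with the members were read from lists of 12 to 15 tested genes. At 6 weeks 0.698% of all 26495 genes were called and 4762 had an unadjusted p under 0.05. Of 13 focal adhesion partners of leupaxin, 3 rose at 12 weeks, Tgfb1i1, its close relative Hic-5 (0.42 ± 0.09), the focal adhesion kinase Ptk2 (0.30 ± 0.09) and Git1 (0.23 ± 0.07), and 0 were called at 6 weeks, with 5 at an unadjusted p under 0.05. Of 13 deltex and Notch genes, 1 was called at 6 weeks (7.69%, against 0.698% of all genes). It was the receptor Notch1, which differed by -1.64 ± 0.28 (limma adjusted p = 0.0353). Blocking on slide gave -1.54 with an adjusted p of 0.10. Notch1 was not called at 12 weeks (-0.61 ± 0.28, limma adjusted p = 0.121). In wild type it differed by -1.44 ± 0.28 in 12 against 6 weeks (limma adjusted p = 0.0656). At 12 weeks the relative Dtx1 rose (0.30 ± 0.09), and the ligands Jag1 (-0.43 ± 0.11) and Dll1 (-0.39 ± 0.12) fell. With the block Dtx1 stood at -0.01, Jag1 at -0.02 and Dll1 at -0.08. For Tgfb1i1, Ptk2 and Git1 the block gave 0.26, 0.16 and 0.10 at 12 weeks. In each of these lists 23.1% were called at 12 weeks, against 31.7% of all genes.

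Of 12 genes of CNTF signalling, 3 rose and 2 fell at 12 weeks. The receptor Cntfr fell (-0.58 ± 0.12), and Gfap, an astrocyte filament that CNTF induces (0.40 ± 0.13), and the kinase Jak2 (0.37 ± 0.09) were among the rises. Of 13 oxysterol-binding protein genes 5 rose and 2 fell at 12 weeks, with Osbpl5 (0.61 ± 0.12), Osbpl10 (0.49 ± 0.09), Osbpl7 (0.43 ± 0.08) and Osbpl2 (0.32 ± 0.07) among the rises. Of 15 decapping genes 5 rose and 1 fell, with the rises of Lsm2 (0.44 ± 0.07), Lsm6 (0.31 ± 0.10) and Edc4 (0.27 ± 0.08) and the fall of the exonuclease Xrn1 (-0.39 ± 0.12). Of 15 syntaxins and partners 4 rose, Stx17 (0.40 ± 0.12), Stx1a (0.36 ± 0.11), Stx5a (0.30 ± 0.07) and Stx16 (0.24 ± 0.07). The 12-week shares called were 41.7%, 53.8%, 40% and 26.7% in this order, against 31.7% of all genes. With slide as a block the rises named here ran from 0.02 (Stx17) to 0.31 (Stx1a). The block gave -0.32 for Cntfr and -0.03 for Xrn1.

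These 4 lists had 0 calls at 6 weeks by limma, where 0.698% of all genes were called. Their genes at an unadjusted p under 0.05 were 4, 1, 5 and 6, where 4762 of all 26495 genes were. The 12-week shares of the 6 lists ran from 23.1% to 53.8%, where 31.7% of all genes were called. With slide as a block 0 genes of any of them were called at either age, where 0.102% of all genes were at 12 weeks and 0.381% at 6 weeks. The list medians at 12 weeks lay between -0.02 and 0.21, against 0.02 over all genes.

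The genes nearest in level to Mpeg1 and Lpxn were found by the root mean square difference of mean-centred levels over 12 arrays, with no test. Members were left out of both lists of 5. The levels hold the knockout difference that chose Mpeg1 and Lpxn, so the measure favours genes with a like difference. Each gene listed was lower in knockout at both ages, as Pts was (-0.95 at 6 weeks, -0.97 at 12 weeks). Nothing on shared regulation is read from the lists. Nearest to Mpeg1 were Pts (0.098), an enzyme of tetrahydrobiopterin synthesis on chromosome 9, the cyclin Ccnd1 (0.118) on chromosome 7, the chemokine Ccl6 (0.119) on chromosome 11, the keratin Krt79 (0.135) on chromosome 15 and Bcl9l (0.140) on chromosome 9. Nearest to Lpxn were Cndp2 (0.104), a peptidase on chromosome 18, Hmga2-ps1 (0.139) on chromosome 1, the small heat-shock protein Cryab (0.141) on chromosome 9, the thromboxane synthase Tbxas1 (0.169) on chromosome 6 and the potassium channel Kcnj13 (0.171) on chromosome 1. Mpeg1 and Lpxn stood 0.167 from each other, which is nearer to Lpxn than Tbxas1, and the closest other member was Cntf, at 0.353 from Mpeg1 and 0.309 from Lpxn.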

How the data were processed

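Whole-brain RNA of 12 mice was measured on 12 arrays. Spot values come from Agilent Feature Extraction, version 10.7.3.1 according to the submitters' processing notes. The signals deposited by the authors are intensity values, per the file headers, and other deposited columns mark spots well above background, saturated or outlying. The series table, also intensity, differed from the processed signal by at most 0.498%. Probe positions are mm9, per the file headers, and promoters are RefSeq's on GRCm38.p6.

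Outlier spots (107 to 220 per array) were left out, no spot was saturated, log2 of the processed signal minus that of each array's 75th percentile was taken, and repeated spots were averaged per probe. Tests kept a probe if some group had it well above background on each of its 3 arrays, which left 37198 probes of 26495 genes. limma 3.58.1 in R 4.3.3 (lmFit, eBayes, 1 mean per group, 8 residual degrees of freedom) was run on all probes, two-sided, and a probe was called at a Benjamini-Hochberg adjusted p under 0.05. It was first tested on simulated data. The number of arrays limits the precision, and dim probes are less precise. Whether replicates came from separate litters is not given in the sources used here.

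No 2 arrays of a group were duplicates (highest correlation 0.996). Named genes are every member probe, Il18, up to 6 genes called near the members over both ages, up to 4 called genes per list (1 of them is not reported here) and the 5 nearest in level to Mpeg1 and to Lpxn. The members and all lists were chosen with earlier results of these data known.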

Additional observations from a re-analysis of the deposited data

How the results depend on the processing

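The call of 1 member probe with age in knockout became 0 with normexp background correction, quantile normalization, the array median in place of the 75th percentile, no filter on dim probes, slide as a fixed or random block, slide column as a block, only the groups compared and the replicate block, and ran from 0 to 2 without single arrays. Same-numbered arrays correlated from -0.19 to 0.10 in their deviations from group means, with 1 of 18 pairs over 0.1, so the numbers do not pair them, and the replicate block moved the count in no other comparison by over 1.5 times. Genes called near the members at 6 weeks were 1, and 2 with quantile normalization. They were 0 with no filter, within slide 1, with slide column as a block and with only the groups compared, and 0 to 1 without single arrays. At 12 weeks they were 20, and 13 with no filter or with slide column as a block, 0 with slide as a fixed or random block, and 10 to 17 without single arrays. Called microglia genes at 12 weeks were 10, and 0 with slide as a fixed or random block, 6 with slide column as a block and 3 to 6 without single arrays. Member probes lower in knockout without overlap at 6 weeks were 3, and 3 to 5 without single arrays. At 12 weeks they were 6, and 3 with normexp, and 6 to 8 without single arrays. The cause was not tested for any of these. With slide as a block 2 of the 20 genes called near the members at 12 weeks turned sign, and 6 of the 54 called list genes did. Median scaling moves the median difference of all probes to 0.13 at 6 weeks and 0.12 at 12 weeks. Slide 1 alone could not be fitted for the 12-week and knockout age comparisons. Probes near background, as the dimmer Mpeg1 probe, are the least precise.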
